A study of Caenorhabditis elegans with 4 samples.

Results

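The combined list of regions bound by MAB-5 in *Caenorhabditis elegans* larvae held 411 regions on chromosome IV, out of 2261 on the 6 chromosomes listed. They are all the entries of that list whose chromosome name is IV, so position alone chose them, and their overlap, q value, width and spacing were free to vary. The series mapped MAB-5 by chromatin immunoprecipitation and sequencing (ChIP-seq) in 2 ChIP samples, set against 2 samples of input chromatin. All 4 came from strain OP27, hermaphrodites of the L2 stage grown at 20 °C. The strain is an unc-119(ed3) mutant that carries wgIs27, a bombarded transgene of mab-5 with TY1, EGFP and FLAG tags together with unc-119. The labels name no change to the strain's own mab-5 gene, and chromatin came from whole larvae, so the lists do not show in which cells a region was bound.

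MAB-5 belongs to the Hox proteins, the homeodomain transcription factors that pattern the body axis. It acts in posterior epidermal, muscle and nerve precursors, and its activation by Wnt signalling in the left Q neuroblast sends the descendants of that cell backwards. Hox proteins bind short, AT-rich sites that are common in the genome, often together with cofactors. The lists were made with PeakSeq, which scores ChIP reads against input. Every entry came with a q value. Its −log10, called strength here, says how surely a region was enriched and not how much protein bound there. A list was at hand for each ChIP sample and for the combined data, with no read counts, so sequencing depth is unknown. Coordinates are those of build WS180. Neither genes nor sequences are given, since no genome of that build was at hand, and each region goes by its position.

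On chromosome IV the combined regions had a median width of 410 bp (interquartile range 334.5 to 533 bp) and covered 195300 bp, or 1.14% of the 17.2 Mb from the first listed base to the last. Strengths ran from 3.73 to 126, with a median of 6.10 and quartiles of 4.76 and 10.3. On the chromosome, 189 entries of replicate 1 joined into 144 distinct regions, and 497 entries of replicate 2 into 403. Their strongest entries were 53.6 in replicate 1 and 126 in replicate 2. Beyond the name of PeakSeq, the sources used here do not say how the lists were made, and many replicate 2 entries recur unaltered in the combined list. Whether the replicate 2 list rests on its own reads alone or on reads of both replicates is therefore not known, and likeness between the replicate lists may not be that of independent samples.

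On chromosome IV 3 regions had strengths far above those of all others. The strongest, at 13695530 to 13696450 (921 bp), had a strength of 126 in the combined list, 50.3 in replicate 1 and 126 in replicate 2. The next, at 14032443 to 14034662 (2220 bp), had 124 in the combined list, 53.6 in replicate 1 and 124 in replicate 2. The third, at 13698975 to 13699964 (990 bp), had 107 in the combined list, 43.6 in replicate 1 and 107 in replicate 2. The same regions thus held the first 3 places of the chromosome in each list, with the first and second exchanged in replicate 1. The fourth region in the combined list reached 43.4, so the third was 2.46 times as strong on this scale. Among all chromosomes, strengths above 100 were listed for 3 of the 411 regions on chromosome IV and for 1 of the 1850 regions elsewhere. Above 50 the order turned, with the same 3 regions on chromosome IV (0.73%) and 20 of the 1850 elsewhere (1.08%). Above 20 there were 7.54% of the regions on chromosome IV and 7.46% of those elsewhere.

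**Figure D1:**
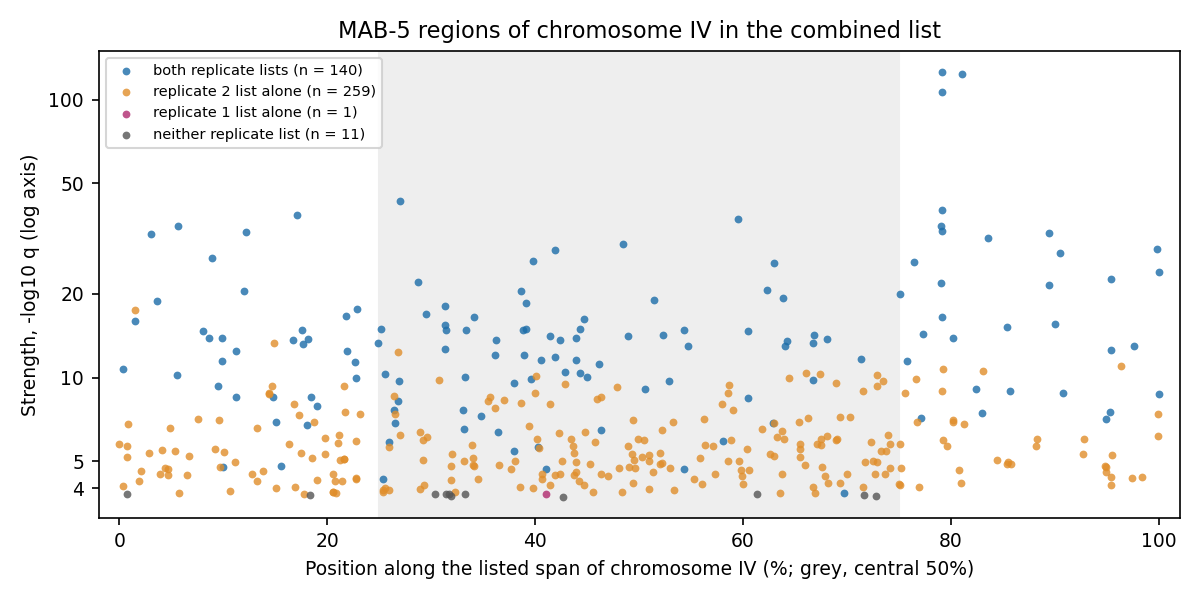
Strength (−log10 q, log axis) of the 411 chromosome IV regions of the combined list against position along the listed span in percent, coloured by the replicate lists that held each region. The 3 strongest regions lie in the last 25% of the span at 107 to 126, and the 140 regions found in both lists sit mostly above the 259 found in replicate 2 alone.

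The strongest and the third region belonged to a run of 7 regions in 15.1 kb, from 13689309 to 13704419, in which neighbours were at most 5000 bp apart. From left to right their strengths in the combined list were 35.0, 39.96, 126, 107, 8.93, 16.5 and 33.6. The replicate 1 list held 6 of the 7, with 17.0, 17.7, 50.3, 43.6, 5.33 and 13.1 in the same order. The weakest of the run, at 13700669 to 13701826, was the one replicate 1 lacked, although it was 1158 bp wide. The second region of the run, at 13694557 to 13695043, ended 486 bp before the strongest began, and the strongest lay 2524 bp before the third. The second strongest region of the chromosome lay outside the run, with its centre 338 kb from that of the strongest.

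**Figure D2:**
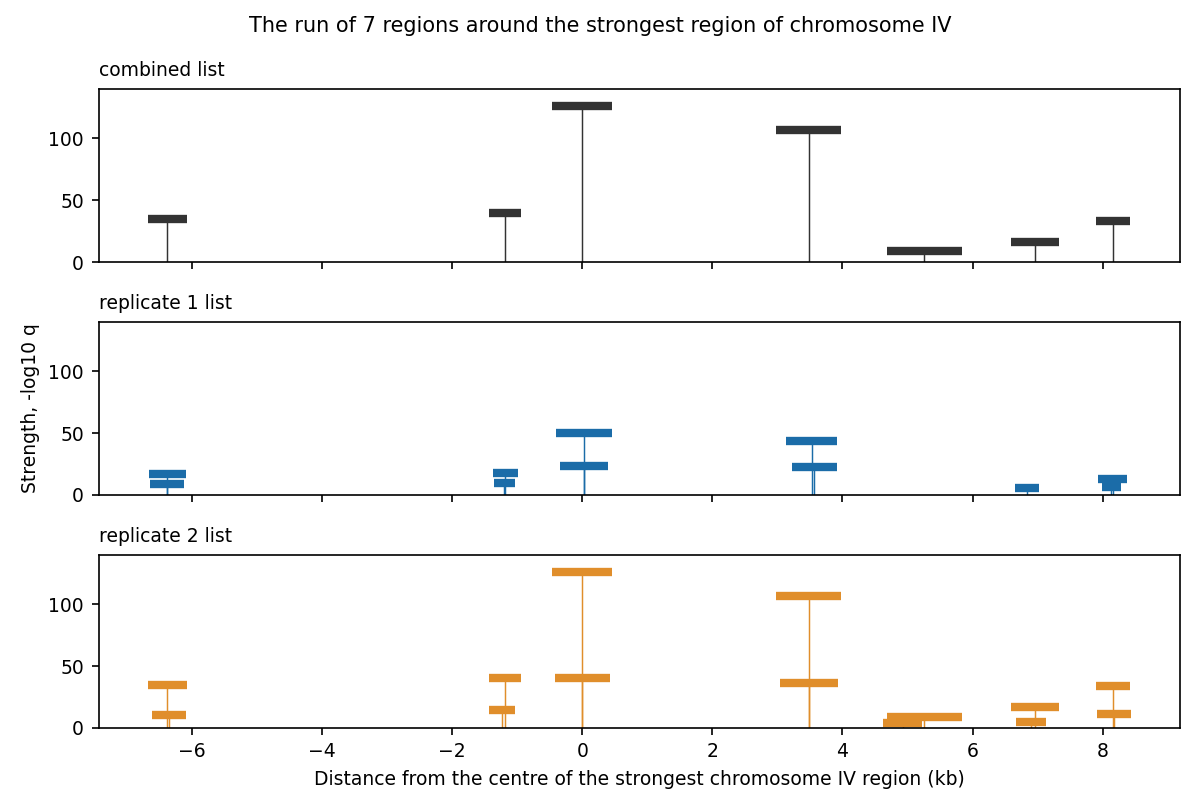
Entries of the 3 lists within the run of 7 regions, by distance in kb from the centre of the strongest chromosome IV region, with each bar spanning the entry's width at its strength (−log10 q). In both replicate lists the 2 tallest regions, and others of the run, are each drawn with a stronger and a weaker entry. The strongest region is drawn at 50.3 and 23.4 in replicate 1 and at 126 and 39.97 in replicate 2.

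The only other run of at least 5 regions on the chromosome lay at 16491356 to 16502236 and held 5 regions in 10.9 kb. It was led by a wide region of 1492 bp at its left end, with a strength of 22.7 in the combined list, 13.9 in replicate 1 and 22.7 in replicate 2. The fourth, at 16497911 to 16498506, had 12.6 in the combined list, 6.78 in replicate 1 and 12.6 in replicate 2. The remaining 3, which began at 16494543, 16496375 and 16501890, had 4.41, 4.11 and 5.26 and were absent from replicate 1. Runs of 4 regions numbered 2, runs of 3 numbered 17 and pairs numbered 48, while 244 regions had no neighbour within 5000 bp. The count of runs of 5 or more depended on the gap allowed, with 0 at 2000 bp and 4 at 10000 bp. Such runs were also listed on other chromosomes, with 4 on III (the longest of 10 regions), 3 on II (the longest of 16), 2 on V (the longest of 7) and 1 on X (of 5), and none on I.

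Of the 17 regions that followed the leading 3 in strength, 3 lay in the run of 7. The last 25% of the span held 7 of the 17, those 3 among them, and 69 of the 411 regions (16.8%). The fourth, at 4749776 to 4750276, had a strength of 43.4 in the combined list, 22.1 in replicate 1 and 43.4 in replicate 2. The sixth, at 3050246 to 3051036, had 38.4 in the combined list, 16.7 in replicate 1 and 40.2 in replicate 2. The seventh, at 10341555 to 10342737, had 37.3 in the combined list, 14.8 in replicate 1 and 37.3 in replicate 2. All 20 were found in both replicate lists. In replicate 1 their strengths ran from 9.31 to 53.6 with a median of 14.8, and in the combined list from 26.4 to 126. Their median width was 612.5 bp, and with the leading 3 there were 10 of the 20 in the last 25% of the span. The strongest and the third of these also lay in the run. Those outside the run that began at 1094186, 2219232, 15471375, 654718 and 14464010 had combined strengths from 31.9 to 35.2. Those that began at 17249649, 7319720, 15646322, 1659042 and 6958527 had 26.4 to 29.1.

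The widest region, at 8430660 to 8433484 (2825 bp), ranked 15 on the chromosome with a strength of 30.2 in the combined list and in replicate 2. In replicate 1 it was split into a region at 8431139 to 8432456 with 9.31 and one at 8432768 to 8433065 with 4.96. It was the only chromosome IV region of the combined list that overlapped 2 distinct replicate 1 regions. A weaker replicate 2 entry inside it, at 8431612 to 8432432, had 5.64 and lay within the stronger of the replicate 1 regions. The narrowest region, 35 bp at 3269273 to 3269307, had a strength of 3.79 and was in neither replicate list.

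The first comparison asked how many regions of chromosome IV the replicate lists held, counting an overlap of at least 1 bp. Both lists held 140 of the 411, or 34.1% (exact 95% interval 29.5 to 38.9%), against 32.9% of all combined regions. Replicate 2 alone held 259 (63.02%), replicate 1 alone held 1, and 11 (2.68%) were in neither, against 3.54% of all regions. The replicate 1 list thus held 141 of the 411 regions on chromosome IV (34.3%) and 604 of the 1850 elsewhere (32.6%), where 33.0% of the whole list was found. The difference of 1.66 percentage points had a 95% interval from −3.27 to 6.82 (two-sided Fisher exact test, p = 0.524, adjusted p = 0.786 over the 6 chromosomes). Replicate 2 held 399 of the 411 (97.1%) and 1780 of the 1850 elsewhere (96.2%), against 96.4% of all. That difference of 0.864 percentage points had an interval from −1.39 to 2.44 and an adjusted p of 1 in the Fisher exact test. Of the combined regions, 303 of the 411 on chromosome IV and 1607 of the 1850 elsewhere were replicate 2 entries unaltered. A high replicate 2 share was thus given in advance, and its test cannot show agreement between the lists. Neighbouring regions are not independent, so all these p-values describe the lists and do not measure variation between worms.

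**Figure D3:**
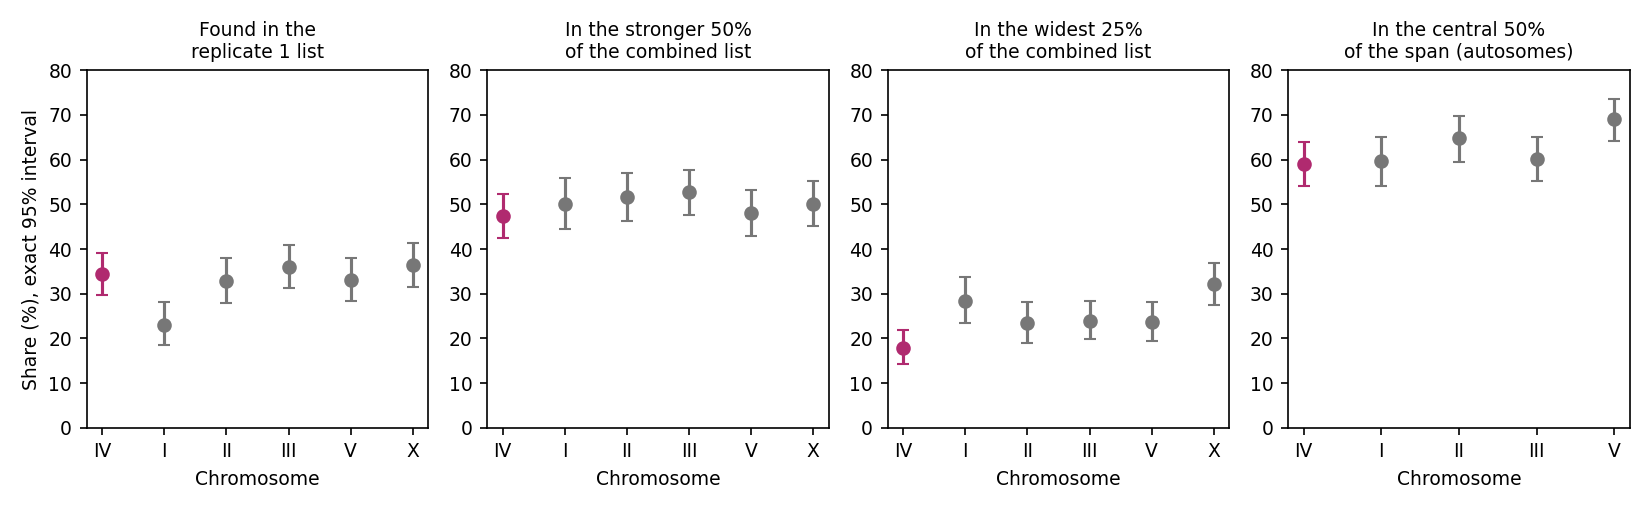
Share of combined regions in percent, with exact 95% intervals, for chromosome IV and then the other chromosomes, in 4 panels: found in replicate 1, in the stronger 50% of the list, in the widest 25%, and (autosomes) in the central 50% of the span. Chromosome IV is lowest in the widest 25%, at 17.8%, and also in the stronger 50%, at 47.4%, and in the central 50%, at 59.1%. Of these shares only that of the widest 25% passed the test. That limit was taken up after its value had been seen, and the share above the median width did not pass. In the replicate 1 panel chromosome IV lies within the range of the others.

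Regions of chromosome IV in both lists were the stronger and wider ones. Their median strength was 13.6 and their median width 506.5 bp, while those in replicate 2 alone had 5.27 and 370 bp. Of the 50 strongest on the chromosome, replicate 1 held 49, and of the 100 strongest it held 94. When all combined regions were divided by strength into 10 groups of equal size, replicate 1 held 2 of the 38 chromosome IV regions in the weakest group and 2.33% (1 of 43) in the fourth. It held 28.6% (10 of 35) in the sixth, 58.5% (24 of 41) in the eighth and 97.4% (37 of 38) in the strongest. On the other chromosomes the weakest group had 1.59% (3 of 189) and the fourth 7.10% (13 of 183). There the sixth group had 16.8%, the eighth 64.3% and the strongest 99.5%. In the third group the shares were 8.70% (4 of 46) on chromosome IV and 2.22% (4 of 180) elsewhere. The intervals of chromosome IV and the other chromosomes overlapped in all 10 groups. How the combined list was made is not stated, and reads of replicate 1 may have entered the strengths used here.

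**Figure D4:**
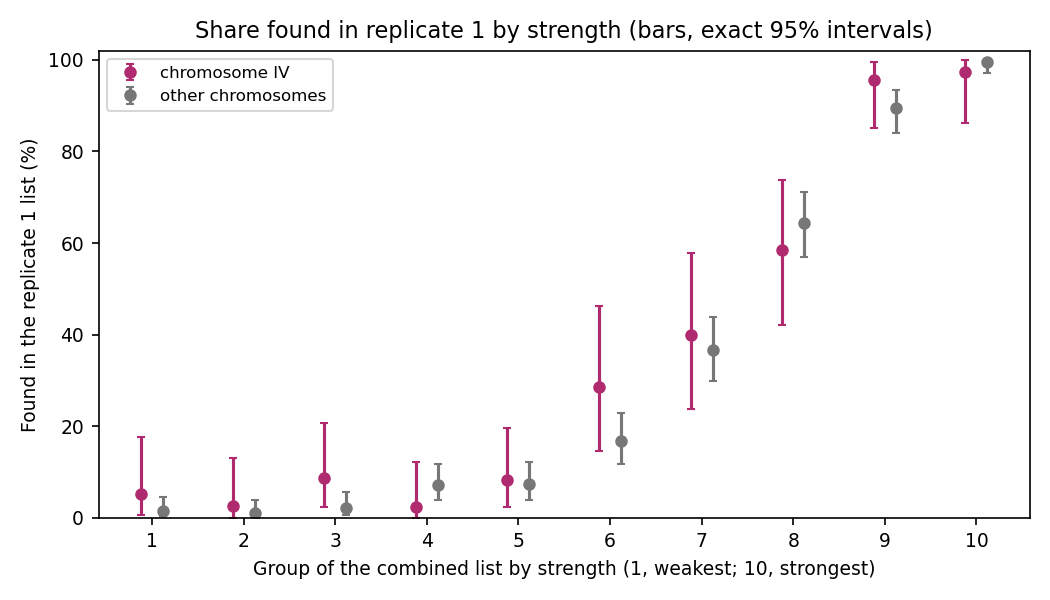
Share of combined regions found in replicate 1 (%) by group of the combined list, from weakest (1) to strongest (10), for chromosome IV and the other chromosomes, with exact 95% intervals. Both rise with strength, on chromosome IV to 97.4% in the strongest group.

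The exceptions at the strong end were few. The strongest chromosome IV region that replicate 1 lacked, at 385090 to 385782, had a strength of 17.5 in the combined list and 17.3 in replicate 2. It was followed by regions at 2676305 to 2676626 (13.3 in the combined list), 4727931 to 4728212 (12.3), 16656204 to 16656568 (10.98) and 13721014 to 13721328 (10.7). The last 4 were at most 365 bp wide, below the median of the chromosome, and all 5 were listed 2 times in replicate 2.

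In the other direction, 141 of the 144 distinct replicate 1 regions on chromosome IV were found in replicate 2 (97.9%, against 99.2% of all replicate 1 regions). The 3 that were not lay at 7162770 to 7163256, with a strength of 4.72, at 7163616 to 7164653, with 4.41, and at 8028144 to 8028535, with 4.31. The first of them is the region in replicate 1 alone counted above, with a combined strength of 3.80, and the combined list lacked the other 2. A difference of −1.59 percentage points from the 611 of 614 elsewhere had an interval from −5.47 to 0.0675 and did not pass the test (Fisher exact p = 0.0861, adjusted p = 0.517). The first 2 lay beside a region that replicate 1 also listed as the stronger, at 7161175 to 7162279, with 8.24 in replicate 1 and 4.71 in replicate 2. From the start of the first to the end of the last these 3 replicate 1 regions spanned 3.48 kb, of which they covered 2630 bp, a stretch named after its values were seen. Of the 403 distinct replicate 2 regions, 140 were found in replicate 1 (34.7%, against 34.0% of all).

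Paired regions of the replicate lists lay close in position, with the limit stated above that the replicate 2 list may not rest on separate reads. Among 139 pairs of distinct chromosome IV regions that overlapped each other alone, the centres were a median of 21.5 bp apart, and 108 pairs (77.7%) were within 50 bp. The 597 pairs elsewhere had a median of 24 bp, and 442 of them (74.0%) were within 50 bp. Replicate 1 regions were the narrower in 120 of the 139 pairs, with a median width of 406 bp, against 513 bp in replicate 2. On the other chromosomes replicate 1 regions were the narrower in 528 of the 597 pairs, with medians of 429 and 526 bp. Strengths had a Pearson's r of 0.97 and a Spearman's rho of 0.778 across the 139 pairs. Without the 2 pairs farthest from the median of replicate 2, r was 0.932. The pair at 13698975, with 43.6 in replicate 1 and 107 in replicate 2, also stands apart and was kept in. Because r was not computed without that pair as well, 0.932 does not show how far r rests on the outlying pairs. Elsewhere r was 0.911 and rho 0.807 over 597 pairs. The strength in replicate 1 was the lower in 134 of the 139 pairs, with a median ratio to replicate 2 of 0.517. On the other chromosomes it was the lower in 589 of the 597 pairs, with a median ratio of 0.489. Besides the pair at 7161175, the largest ratio on chromosome IV was 1.58, at 13353219 to 13353720, with 11.3 in replicate 1 and 7.18 in replicate 2. These are descriptions across regions of the same libraries, and with depth unknown the strengths of the 2 lists are not on a common scale.

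**Figure D5:**
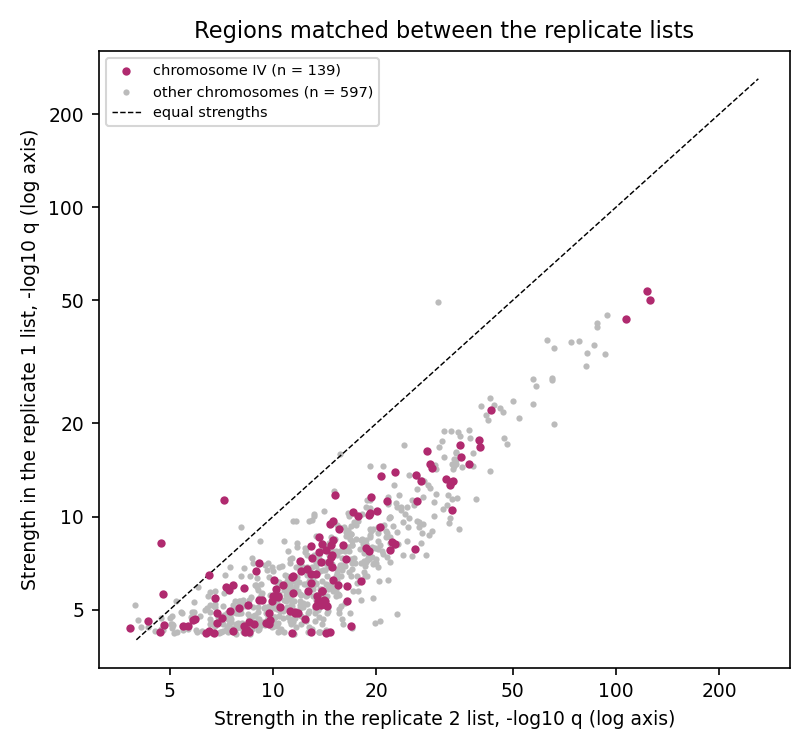
Strength in replicate 1 against strength in replicate 2 (−log10 q, log axes) for distinct regions that overlapped each other alone, with 139 pairs on chromosome IV in front and 597 on the other chromosomes in grey. Below the dashed line of equal strengths lie 134 of the chromosome IV pairs and 589 of the others. The 3 strongest pairs of chromosome IV stand apart from its other pairs at the upper right.

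Many of the strong regions were listed 2 times within 1 replicate list, as a stronger entry and a weaker one that mostly lay inside it. On chromosome IV this held for 45 of the 144 replicate 1 regions (31.2%), against 173 of 614 elsewhere (28.2%) and 28.8% of all. In replicate 2 it held for 94 of the 403 regions (23.3%), against 366 of 1784 elsewhere (20.5%) and 21.0% of all. Neither difference passed the Fisher exact test (adjusted p = 0.57 and 0.335). The weaker entry lay wholly inside the stronger one in 38 of the 45 replicate 1 regions (84.4%) and in 85 of the 94 replicate 2 regions (90.4%). On the other chromosomes the shares were similar, with 149 of 173 (86.1%) in replicate 1 and 344 of 366 (94.0%) in replicate 2. On chromosome IV 37 regions had 2 entries in both lists. For the strongest region the replicate 1 entries had 50.3 and 23.4, and the replicate 2 entries 126 and 39.97. For the region at 14032443 they were 53.6 and 27.6 in replicate 1, and 124 and 37.8 in replicate 2. For the region at 13698975 they were 43.6 and 22.3 in replicate 1, and 107 and 36.2 in replicate 2. The weaker replicate 2 entry thus stood between the replicate 1 entries, as it did in 26 of the 37 regions, and in 101 of 150 on the other chromosomes. Over the 37 regions, the stronger entries of the 2 lists had a Spearman's rho of 0.850 with each other, and the weaker entries 0.667. The weaker replicate 2 entry had a rho of 0.724 with the stronger replicate 1 entry. Elsewhere these values were 0.869, 0.649 and 0.736 over the 150 regions.

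The combined list and the replicate 2 list shared entries outright. On chromosome IV 303 of the 411 combined regions (73.7%) had the coordinates and the q value of a replicate 2 entry, compared with 1607 of 1850 (86.9%) elsewhere, and none had those of a replicate 1 entry. The remaining regions were gathered in blocks. Counted by the megabase that held their centre, at most 10% of regions were identical in 5 of the 18 blocks of chromosome IV, and at least 80% in the other 13. The 5 were the blocks from 0 to 1, 2 to 3, 3 to 4, 12 to 13 and 17 to 18 Mb, with 2 identical regions of 101, while elsewhere on the chromosome 301 of 310 were identical. On the other chromosomes 7 of 84 blocks were as low, and 3 lay between the 2 limits, at 13.0%, 15.4% and 77.8%. Of the 108 regions that were not identical, 96 overlapped a replicate 2 entry, 45 of them one with the very same q value and slightly different edges. The larger of the shifts at the 2 edges had a median of 9.5 bp. The replicate 2 and combined values therefore cannot be read as separate measurements. The blocks were noticed after the lists had been seen, and their origin was not tested.

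Regions in the widest 25% of the list were scarcer on chromosome IV than elsewhere. This limit was an alternative to the median width and was taken up after its value had been seen. Of the 411 regions, 73 were in the widest 25% of the combined list, above 599 bp (17.8%, exact 95% interval 14.2 to 21.8%). Elsewhere 486 of 1850 were (26.3%, 24.3 to 28.3%), and 24.7% of the whole list. The difference of −8.51 percentage points had an interval from −12.5 to −4.07 (Fisher exact p = 0.00024, adjusted p = 0.000776 over the 6 chromosomes). Above 1000 bp there were 13 regions on chromosome IV (3.16%) and 133 elsewhere (7.19%). At the median width the difference was smaller and did not pass, since 46.96% of chromosome IV regions and 50.5% of those elsewhere were above the list's median, against 49.8% of all (difference −3.53, interval −8.82 to 1.81, Fisher adjusted p = 0.252). X had the most wide regions, with 32.1% in the widest 25%. In the next comparisons the limit of the widest 25% was set anew within each set, so their shares are not those above 599 bp. Against the other 4 autosomes alone (limit 579.75 bp), chromosome IV had 20.4% and they had 26.3% (Fisher adjusted p = 0.0717). In the replicate 1 list without replicate 2 (limit 613 bp) the shares were 17.4% and 26.7% (Fisher adjusted p = 0.0563). Among the stronger 50% of the regions (limit 691.75 bp) they were 19.5% and 26.2% (Fisher adjusted p = 0.168).

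Strength did not detectably set the chromosome apart. The stronger 50% of the combined list held 195 of the 411 regions (47.4%), compared with 935 of 1850 elsewhere (50.5%) and 50.0% of all. The difference of −3.10 percentage points had an interval from −8.39 to 2.24 (Fisher exact p = 0.275, adjusted p = 0.782). Strength and width rose together to a similar extent, with a Spearman's rho of 0.419 over the 411 regions on chromosome IV and 0.405 over those elsewhere.

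Regions were denser in the middle of chromosome IV than towards its ends. Autosomes of this species have gene-dense centres and repeat-rich arms, and gene density was not taken into account. The central 50% of the span held 243 of the 411 regions (59.1%, exact 95% interval 54.2 to 63.9%), and the same stretch of the other 4 autosomes held 922 of 1451 (63.5%), against 62.6% of all autosomal regions. The difference of −4.42 percentage points had an interval from −9.82 to 0.863 (Fisher adjusted p = 0.265 over 5 autosomes). In successive stretches of 25% of the span from left to right, chromosome IV had 99, 135, 108 and 69 regions. Their median strengths were 6.08, 6.21, 5.77 and 7.50, and the share in the stronger 50% of the list was 48.5%, 46.7%, 37.96% and 62.3%. The last stretch thus had the fewest regions and the highest share of strong ones. Replicate 1 held 34.3%, 38.5%, 21.3% and 46.4% of the regions in the 4 stretches.

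Within the chromosome, 104 of 243 regions of the central 50% of the span were in the stronger 50% of the list (42.8%), compared with 91 of 168 in the outer parts (54.2%). The difference of −11.4 percentage points had a Fisher exact p of 0.0271, and 0.0812 after adjustment over the 3 tests within the chromosome, so it did not pass. It was −7.28 with the central 40% of the span (Fisher adjusted p = 0.499) and −19.3 in the replicate 1 list without replicate 2 (adjusted p = 0.0595), and passed in neither. Replicate 1 held 75 of the 243 (30.9%) and 66 of the 168 (39.3%), a difference of −8.42 percentage points with an adjusted p of 0.136. That comparison passed with a reciprocal overlap of 50% (−10.1 percentage points, Fisher adjusted p = 0.0485) and with entries limited to q values of at most 1e-05 (−15.5, adjusted p = 0.0258). It did not pass with centres at most 200 bp apart (−9.66, Fisher exact test, adjusted p = 0.0663) or with the central 40% of the span, where the difference was −4.47 (adjusted p = 0.527). To the right of the span's midpoint 47.5% of regions were in the stronger 50% of the list, and to the left of it 47.4% (Fisher exact test, adjusted p = 1). In the replicate 1 list without replicate 2 the shares were 60.0% to the right and 41.6% to the left, a difference of 18.4 percentage points that did not pass (Fisher adjusted p = 0.0595).

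At the scale of 1 Mb, the number of regions varied from 7 to 40, leaving out the first and last blocks, which the listed span fills only in part. The fullest block, from 7 to 8 Mb, held 40, of which replicate 1 held 15. The block from 12 to 13 Mb held 24 regions with a highest strength of 11.7, of which replicate 1 held 2. The next block, from 13 to 14 Mb, held 28 with a median of 9.40, of which replicate 1 held 13, and it includes the run of 7. These 2 blocks also differed in how many regions were identical to a replicate 2 entry, with 1 of 24 and 27 of 28. Whether that bears on their strengths was not tested. The block from 15 to 16 Mb held 7 regions with a median of 15.6. The 3 longest stretches without a listed region also lay on the right arm. They measured 421 kb between 14838476 and 15259392, 338 kb between 16050632 and 16389117, and 331 kb between 15697215 and 16028077.

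Spacing on chromosome IV was not detectably different from that of the other chromosomes. Of its 410 gaps between neighbouring regions, 98 were at most 5000 bp (23.9%), compared with 447 of 1845 elsewhere (24.2%) and 24.2% of all. The difference of −0.325 percentage points had an interval from −4.69 to 4.43 (Fisher adjusted p = 0.949). The median gap was 23.7 kb, and the medians of the other chromosomes ran from 20.2 to 28.2 kb. The strengths of neighbours within 5000 bp were only weakly related, with a Spearman's rho of 0.181 over 98 neighbouring pairs that share regions, and 0.123 over the 312 pairs farther apart.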

How the data were processed

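The 2 ChIP samples were each represented by a list of regions, beside 1 combined list. Input chromatin entered only through the authors' peak calls. Groups and replicate numbers came from the sample titles, and nothing in them says that the replicates were separate cultures. Per the labels' protocols, larvae were crosslinked with 2% formaldehyde and precipitated with antibodies to GFP. Per the file headers, coordinates follow WormBase WS180, and the source column names PeakSeq. For the aligner, the q limit and the making of the combined list, the sources used here say nothing. The only deposited measurement is the authors' q-value per entry. Columns with values of other samples numbered 0.

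Strength was −log10 of the q-value. Distinct regions joined overlapping entries of 1 list and kept the smallest q-value. An overlap of 1 bp or more made regions of 2 lists shared. The span ran between the first and last base of any list on a chromosome. Shares have exact Clopper-Pearson 95% intervals, and differences have Newcombe intervals, which cover counting error only. Tests were two-sided Fisher exact tests of each chromosome against the rest, adjusted by the Benjamini-Hochberg method over 6 chromosomes, or over 5 autosomes for position. The 3 tests within chromosome IV were adjusted together. Correlations are given without p-values.

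Regions named are the 20 strongest, those in runs of at least 5, the 5 strongest absent from replicate 1, those of replicate 1 absent from replicate 2, and the widest and narrowest. Others were chosen after their values were seen. The regions, measures and rules were chosen with earlier results of these lists known. The scripts were tested on simulated data. Tests used scipy 1.17.1 and tables pandas 2.3.3 with numpy 2.4.6, under Python 3.11.15, and figures were drawn with matplotlib 3.10.9.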

Additional observations from a re-analysis of the deposited data

How the results depend on the processing

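Values below are differences in percentage points, chromosome IV minus the others unless named. No paired analysis was possible because ChIP and input were not compared, the input samples having no list among those used. Directions turned in 5 cases, none of them past the threshold in either setting. With centres at most 200 bp apart, the share of replicate 1 regions found in replicate 2 differed by 0.265. With q values of at most 1e-05, the share in the stronger 50% differed by 1.40, and the right of the span differed from the left by −2.59. The share of short gaps differed by 0.216 to 0.728 when 1 replicate was left out. The replicate 1 share of the central 50% of the span minus that of the outer parts passed with a reciprocal overlap of 50% (−10.1) and with q values of at most 1e-05 (−15.5), but not with centres at most 200 bp apart (−9.66) or with the central 40% (−4.47). The share in the stronger 50%, central minus outer, did not pass in any setting and ran from −7.28 with the central 40% to −19.3 without replicate 2. Without replicate 2 the right of the span differed from the left by 18.4, which did not pass. Width passed for the widest 25% (−8.51) but not at the median. The difference for the widest 25% was −9.35 in the replicate 1 list and −8.40 in the replicate 2 list. It no longer passed in the replicate 1 list, on autosomes alone (−5.89) or in the stronger 50% (−6.72), and it passed for the widest 10% (−5.67). The width limit was set anew within each of these sets. Runs of 5 or more numbered 2, but 1 with q values of at most 1e-05, 0 with gaps of at most 2000 bp, 4 with gaps of at most 10000 bp, and 1 to 2 when 1 replicate was left out. With a reciprocal overlap of 50%, the region at 8430660 no longer matched replicate 1, and the other 22 named regions with a replicate 1 entry did. The widest 25% was an alternative listed for width, and its further settings were chosen after seeing the data. No list gave reads, so what depth limits could not be measured.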
